A study of Mus musculus with 2 samples.

Results

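The genes described here encode proteins of the neutrophil's specific (secondary) granules and their close companions. The rows with the symbols Ltf, Camp, Ngp, Lcn2, Chil3, Olfm4, Orm1, Hp and Lyz2 were taken from both count tables, and all 9 were found among 32285 genes. Blood came from mice labelled male at 2 months (young) or 24 months (old). After red cell lysis, live cells positive for CD45, CD11b and Ly6G were sorted and captured in BD Rhapsody microwells, with a single library for each age, per the labels. The file headers name the program Cell Ranger, and how this relates to the capture platform is not given in the sources used here. No genotype, strain or treatment is given in the labels used here, nor how many animals were pooled. Because each age has only 1 library, ages cannot be tested against each other: no p-value is given and every value describes these 2 libraries.

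Neutrophils carry ready-made proteins in granules that are filled in sequence while the cell matures in the bone marrow. Azurophil granules are filled first, at the promyelocyte stage, specific granules follow at the myelocyte and metamyelocyte stages, and gelatinase granules come last. The transcripts of specific granule proteins are known to decline as the cell leaves the marrow, whereas the stored proteins remain. Ltf (lactoferrin) binds iron, Lcn2 (lipocalin 2) binds bacterial siderophores, and Hp (haptoglobin) binds free haemoglobin. Camp is the precursor of the antimicrobial peptide cathelicidin, Ngp is a cystatin-related granule protein, and Olfm4 is a glycoprotein found in the granules of some neutrophils only. Orm1 is an acute-phase carrier protein best known from liver. Chil3 is a chitinase-like protein that monocytes and macrophages also make, and Lyz2 (lysozyme) is a general myeloid enzyme found in more than 1 granule type.

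Cells that passed the filters were 12921 young and 13517 old. Clusters were computed without the 9 genes and their paralogs and named from marker genes. Neutrophil-like cells numbered 9855 young (76.3% of cells kept) and 8416 old (62.3%), with all 10 neutrophil markers measured in both. Their median depth was 4076 unique molecular identifiers (UMIs, 1 per captured mRNA molecule) young and 7504 old. Most young neutrophil-like cells lay in clusters 0 and 3 and most old ones in clusters 1, 4 and 0. B, T and NK cell-like cells, pooled as lymphocyte-like, numbered 874 young and 382 old at median depths of 6793 and 7777 UMIs. They showed how many UMIs of a gene turned up in cells that should not make it. The libraries share 53 cell barcodes. Levels are given as CPM, a gene's UMIs scaled to a common total per class and library. Against the male label, neutrophil-like cells held the X-inactivation RNA Xist (2467 UMIs young, 7374 old) and no UMI of Eif2s3y, a Y chromosome gene, although another one, Ddx3y, stood at 22.6 CPM young and 8.18 CPM old.

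All 9 genes are protein-coding. In the GENCODE annotation of GRCm38, Camp (ENSMUSG00000038357) lies on chromosome 9 from 109847379 to 109849617 on the minus strand. Ngp (ENSMUSG00000032484) lies on the same chromosome from 110419747 to 110423012 and Ltf (ENSMUSG00000032496) from 111019271 to 111042767, both on the plus strand, with gaps of 570 kb between Camp and Ngp and 596 kb between Ngp and Ltf. Lcn2 (ENSMUSG00000026822) is on chromosome 2 from 32384633 to 32388252, Chil3 (ENSMUSG00000040809) on chromosome 3 from 106147554 to 106167564, and Orm1 (ENSMUSG00000039196) on chromosome 4 from 63344560 to 63348163. Hp (ENSMUSG00000031722) is on chromosome 8 from 109575128 to 109579172, Lyz2 (ENSMUSG00000069516) on chromosome 10 from 117277331 to 117282321, and Olfm4 (ENSMUSG00000022026) on chromosome 14 from 79984081 to 80023139. Lyz2, Chil3 and Orm1 have close paralogs next to them (Lyz1, Chil4, and Orm2 and Orm3), so reads could be split between copies and their counts are uncertain to that extent.

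RefSeq promoter windows on GRCm38.p6 were at hand for 7 of the 9 genes, all but Orm1 and Hp. The 120 bases before the RefSeq start are shown for the 3 chromosome 9 genes, whose transcripts moved together most closely in the results that follow, and for Lcn2, whose transcripts were lost later. Capitals mark 2 motifs, searched on both strands: the C/EBP core TTNNGNAA and the ETS core GGAAG. The windows are chr9:109849457-109849576 (minus strand) for Camp, chr9:110419688-110419807 (plus strand) for Ngp, chr9:111019172-111019291 (plus strand) for Ltf and chr2:32387740-32387859 (minus strand) for Lcn2. The RefSeq start lies inside a longer GENCODE gene model for all 4.
Camp: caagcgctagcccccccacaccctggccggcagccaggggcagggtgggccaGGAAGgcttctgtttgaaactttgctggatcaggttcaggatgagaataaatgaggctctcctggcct
Ngp: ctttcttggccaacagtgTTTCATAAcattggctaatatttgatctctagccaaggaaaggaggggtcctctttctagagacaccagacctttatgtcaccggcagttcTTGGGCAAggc
Ltf: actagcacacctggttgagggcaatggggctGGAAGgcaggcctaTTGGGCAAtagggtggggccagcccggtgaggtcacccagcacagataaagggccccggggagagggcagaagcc
Lcn2: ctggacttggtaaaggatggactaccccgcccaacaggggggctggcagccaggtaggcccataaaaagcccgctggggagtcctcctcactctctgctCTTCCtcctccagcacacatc
The C/EBP core occurred within the 120 bases in 4 of the 7 genes (Ltf, Ngp, Chil3 and Lyz2), against 18.0% of 32851 RefSeq promoters. Within 250 bases it occurred in 6 of 7, all but Camp, against 36.8% of promoters. The ETS core occurred within 250 bases in 6 of 7, all but Ngp, against 64.1% of promoters. ATAAA within the last 50 bases was found in Camp and Ltf and in 6.57% of promoters. These are matches of letters and do not show binding.

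Transcripts of 8 of the 9 genes were more abundant in old than in young neutrophil-like cells by over 1.5-fold, and none was less abundant. Of all 7180 genes measured at 5 CPM or more, 7.56% were higher and 51.2% lower by this rule, and the median of these genes lay at -0.60 log2 against 3.16 for the 9 members. Relative to the median gene at 50 CPM or more, which stood at -0.68 log2, 9 of 9 were higher, against 23.7% of genes higher and 12.7% lower. Together the 9 genes took 0.582% of neutrophil-like UMIs in the young library and 3.23% in the old. The calgranulins S100a8 and S100a9, the most abundant neutrophil transcripts, took 10.8% and 29.6%. Fewer cells with a transcript and less transcript per cell cannot be told apart in such sums, so the distribution over cells follows them.

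The 3 chromosome 9 genes and Orm1 showed the widest gaps between the libraries. Ltf stood at 153 CPM (149 to 157, exact 95% Poisson interval, which covers counting error only) in young and 2650 CPM (2638 to 2662) in old neutrophil-like cells, 17.3-fold. Ngp stood at 522 CPM young and 8588 CPM old, 16.5-fold. Camp stood at 315 CPM young and 4387 CPM old, 13.9-fold. The intervals of the libraries lay far apart for all 3 genes.

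Lcn2, the siderophore binder, stood at 1409 CPM in young and 9029 CPM in old cells, 6.41-fold. Chil3 stood at 67.6 and 858 CPM, 12.7-fold. Olfm4 stood at 21.7 CPM (20.3 to 23.1) and 83.8 CPM (81.7 to 85.9), 3.87-fold. Without thinning, its UMIs per lymphocyte-like cell came to 113% of the neutrophil-like value in the young library and 7.49% in the old, and 76 of the 96 young lymphocyte-like UMIs lay in 2 NK cell-like cells. Subtracting these values removed the whole young level and moved the log2 ratio of Olfm4 from 1.90 to 7.30. Orm1 rested on 55 young and 1406 old UMIs and stood at 1.24 CPM (0.936 to 1.62) and 19.1 CPM (18.1 to 20.1). The ratio was 15.3-fold, or 3.16 log2 with 1 CPM added to each level. Lyz2 stood at 1546 and 4570 CPM, 2.96-fold. Hp was the exception, at 1786 CPM (1774 to 1799) and 2119 CPM (2108 to 2129), 1.19-fold and inside the 1.5-fold limit, although the intervals did not overlap. Its log2 ratio was 0.25, and it stood at 0.93 relative to the median gene and at -0.40 with the UMIs per lymphocyte-like cell subtracted, so its direction depended on the scaling.

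Other granule genes differed less than Ltf, Camp and Ngp did. Of 20 further specific granule genes, 15 were measured, with 9 higher in the old library, 0 lower and 6 within 1.5-fold, at a median of 0.69 log2 (7.56% of all genes were higher and 51.2% lower). Relative to the median gene 11 were higher and 0 lower. Cd177, a surface antigen stored in specific granules, stood at 74.3 CPM young and 673 CPM old. Cybb, the catalytic subunit of the NADPH oxidase, stood at 70.0 and 519.6 CPM. Ceacam10 stood at 53.6 and 180.1 CPM and Mmp8, the neutrophil collagenase, at 922 and 2167 CPM. These values were again higher in the old library, by smaller factors than for Ltf, Camp and Ngp, although Cd177 (9.06-fold) and Cybb (7.42-fold) exceeded Lcn2, Olfm4, Lyz2 and Hp.

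Of 8 azurophil granule genes 4 were measured, with 3 higher and 1 lower, and 3 higher and 0 lower relative to the median gene. Ctsc, the protease that activates the granule serine proteases, had 310 UMIs young (6.25 to 7.83 CPM) and 2234 UMIs old (29.0 to 31.6 CPM). Gusb, a lysosomal glucuronidase, stood at 24.4 and 11.1 CPM and was within 1.5-fold relative to the median gene. Elane (1 and 42 UMIs) and Mpo (0 and 18 UMIs) lay under the floor. Of 7 gelatinase granule genes 3 were higher, 3 lower and 1 within, and relative to the median gene 4 were higher and 0 lower. Retnlg stood at 7535 CPM young and 22224 CPM old and Mmp9, gelatinase B, at 1236 and 1893 CPM, whereas the membrane fusion protein gene Vamp2 stood at 30.6 and 17.5 CPM, which was -0.09 log2 relative to the median gene. Of 10 transcription factors of granulopoiesis, 8 were measured, with 2 higher and 4 lower, a share of lower genes close to that of all genes, and 3 higher and 0 lower relative to the median gene. Cebpe, known as the factor required for specific granules, stood at 18.6 CPM young and 51.7 CPM old. Cebpa, which acts earlier, stood at 17.9 and 7.13 CPM and was within 1.5-fold relative to the median gene. None of 7 receptor and partner genes (such as Lrp1, Cd163 and the lipocalin receptor Slc22a17) reached the floor of 5 CPM.

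The paralogs took few UMIs. Lyz1 had 25 young and 305 old UMIs, against 68427 and 337025 for Lyz2. Chil4 had 0 and 2 UMIs, Orm2 27 and 35, and Orm3 25 and 25. Chil1, a more distant relative of Chil3, stood at 160.1 CPM young and 319.5 CPM old.

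For Camp, Ltf and Ngp most UMIs of both libraries lay in 1 cluster, whose share of cells differed between them. Cluster 4, whose leading genes included Serpinb1a, Cd177 and Ifitm6, held 111 young cells (1.13% of neutrophil-like cells) and 1744 old cells (20.7%). It held 95.9% of Camp UMIs in the young library and 94.9% in the old, 95.5% and 94.3% of Ltf UMIs, and 89.5% and 89.0% of Ngp UMIs. For Lcn2 these shares were 20.2% and 60.5%, for Lyz2 10.7% and 56.4%, for Olfm4 17.4% and 68.7% and for Hp 2.35% and 33.6%. Within this cluster the libraries were close. Camp stood at 11826 CPM young and 11614 CPM old, Ltf at 5717 and 6969 CPM, Ngp at 18264 and 21311 CPM, and Chil3 at 2055 and 2087 CPM. Lcn2 stood at 11126 and 15240 CPM there, Lyz2 at 6454 and 7193 CPM and Hp at 1643 and 1986 CPM. Over the 9 genes the median log2 ratio within cluster 4 was 0.22, and 1 gene, Orm1 (29.2 and 46.1 CPM), passed 1.5-fold. The share of all genes past 1.5-fold within this cluster was not computed. Clusters were computed from other genes of the same cells, so the share of cluster 4 describes these libraries and is no test.

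Outside cluster 4 the genes separated. Cluster 0, which held 7922 young and 1538 old cells, had Camp at 11.8 CPM young and 199 CPM old, Ltf at 6.64 and 125 CPM, and Hp at 1786 and 1815 CPM. Cluster 1, with 4714 old and 77 young cells, had Camp at 351 CPM and Ltf at 237.5 CPM in the old library, a small part of their levels in cluster 4. Lcn2 (6128 CPM) and Lyz2 (3182 CPM) kept far more of theirs. Lymphocyte-like cells held Camp at 43.6 CPM young and 669 CPM old and Ltf at 34.9 and 441 CPM. The Camp and Ltf levels of cluster 0 and of old cluster 1 lay below these, and those of cluster 0 are read as background. The old lymphocyte-like values include cells rich in S100a8 and S100a9. Without those cells, at 1000 UMIs drawn per cell, old lymphocyte-like cells held 0.160 Camp and 0.127 Ltf UMIs. Against these values old cluster 1 stood higher in both genes, so its levels are not shown to be background. Without cluster 4, Orm1 was not measured, and 7 of the other 8 genes were higher in the old library by over 1.5-fold. Hp (0.29 log2) was within it, and the median over the 8 was 2.82 log2. The share of all genes past 1.5-fold was not computed for these cells. Lcn2 differed by 2.27 log2 there, Lyz2 by 1.13 and Olfm4 by 1.11. The ratios of Camp (4.61) and Ltf (4.88) set young levels mostly of cluster 0, read as background, against old levels mostly of cluster 1.

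**Figure D1:**
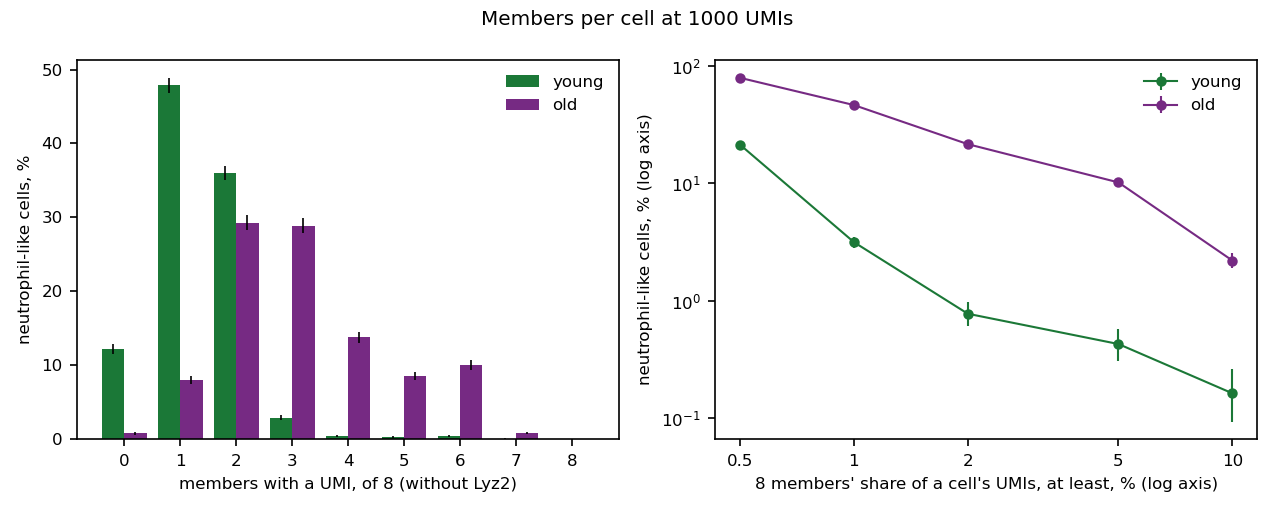
Left, percent of neutrophil-like cells, each thinned to 1000 UMIs, by the number of the 8 genes other than Lyz2 with at least 1 UMI, and right, percent of cells in which these genes took at least the given share of UMIs (both axes logarithmic), with exact 95% Clopper-Pearson intervals, in green for the young library (9797 cells) and purple for the old (8367 cells). Most young cells had 1 or 2 of the genes, and the old library reached 10.2% of cells at a share of 5% against 0.429% in the young.

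Thinning each cell to 1000 UMIs, which left out 58 young and 49 old cells, made the libraries comparable per cell. Unthinned, Camp UMIs were found in 4.35% of young and 73.6% of old neutrophil-like cells, Ltf in 3.38% and 61.5%, Ngp in 9.93% and 89.5%, Lcn2 in 71.3% and 98.4%, and Hp in 97.4% and 98.98%. After thinning, 1.61% of young cells (1.37 to 1.88, exact Clopper-Pearson) and 32.2% of old cells had a Camp UMI. The share in lymphocyte-like cells was 1.74% young and 17.2% old. For Ltf, 1.36% of young and 27.8% of old cells had a UMI, against 0.930% and 13.5% of lymphocyte-like cells. For Ngp these shares were 3.39% and 54.9%, against 2.91% and 28.6% of lymphocyte-like cells. The shares of young cells with a Camp, Ltf or Ngp UMI were thus close to the lymphocyte-like shares and are read as background, apart from the few cells with many UMIs. For Lcn2, 45.8% of young and 91.1% of old cells had a UMI, against 12.6% and 38.5% of lymphocyte-like cells. Hp UMIs were found in 78.6% of young and 84.3% of old cells, against 17.2% and 20.4%, well above background in both libraries.

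The transcripts were spread very unevenly. In the young library 46 of 9797 cells (0.470%) had 10 or more Camp UMIs of 1000, and the highest had 57. Of 8367 old cells 686 (8.20%) had 10 or more, with the same highest count of 57. The 1% of young cells with most Camp UMIs held 95.3% of them, against 16.8% in the old library. For Ltf these values were 94.3% and 13.9%. Hp was the most even of the genes apart from Orm1, which had at most 4 UMIs in a thinned cell. The variance of Hp over cells was 1.37 times its mean in young cells and 1.26 times in old ones, where counting alone gives 1, against 23.5 and 17.4 for Camp. Lcn2 lay between them at 3.77 and 5.58.

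Counted together without Lyz2, the 8 genes took at least 5% of the UMIs of 0.429% of young cells (0.309 to 0.579) and of 10.2% of old cells (9.52 to 10.8). The median cell gave them 0.2% of its UMIs in the young library and 0.9% in the old. None of the 8 was detected in 12.2% of young cells and in 0.789% of old cells. Of the 4 genes Lcn2, Ngp, Camp and Ltf, 42.7% of young cells had Lcn2 alone, 1.56% Lcn2 and Ngp, and 0.674% all 4. Among old cells 29.5% had Lcn2 alone, 22.7% Lcn2 and Ngp, and 18.0% all 4. Cells that fit the order Lcn2, then Ngp, then Camp, then Ltf, with no gap, made up 98.0% of young cells and 81.6% of old cells. Most of the young share were cells with none of the 4 (52.7%) or with Lcn2 alone, which bear little on the order. Among cells with Ngp, Camp or Ltf, 251 of 451 young cells (55.7%) and 3971 of 5514 old cells (72.0%) fit it. The order is also that of falling shares of cells with a UMI in both libraries. The fit that these shares alone would give was not computed, so these values show no order of loss.

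To order the losses, neutrophil-like cells of each library were ranked by a maturity score made from 14 early genes (such as Ly6g, Ifitm6 and Anxa1) and 10 late genes (such as Cxcr2, Csf3r and Il1b), none of them a member, and cut into 10 groups of equal size, group 1 being the least mature. From group 1 to group 10 the median depth fell from 5108 to 3612 UMIs young and from 15668 to 3631 UMIs old, and levels are therefore given as CPM. Between these end groups 7 of the 8 measured genes were higher in the least mature group in the young library, where 5.96% of genes were higher and 16.6% lower. In the old library 8 of 9 were higher, where 13.4% of genes were higher and 50% lower. None of those measured was lower past 1.5-fold in either library.

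**Figure D2:**
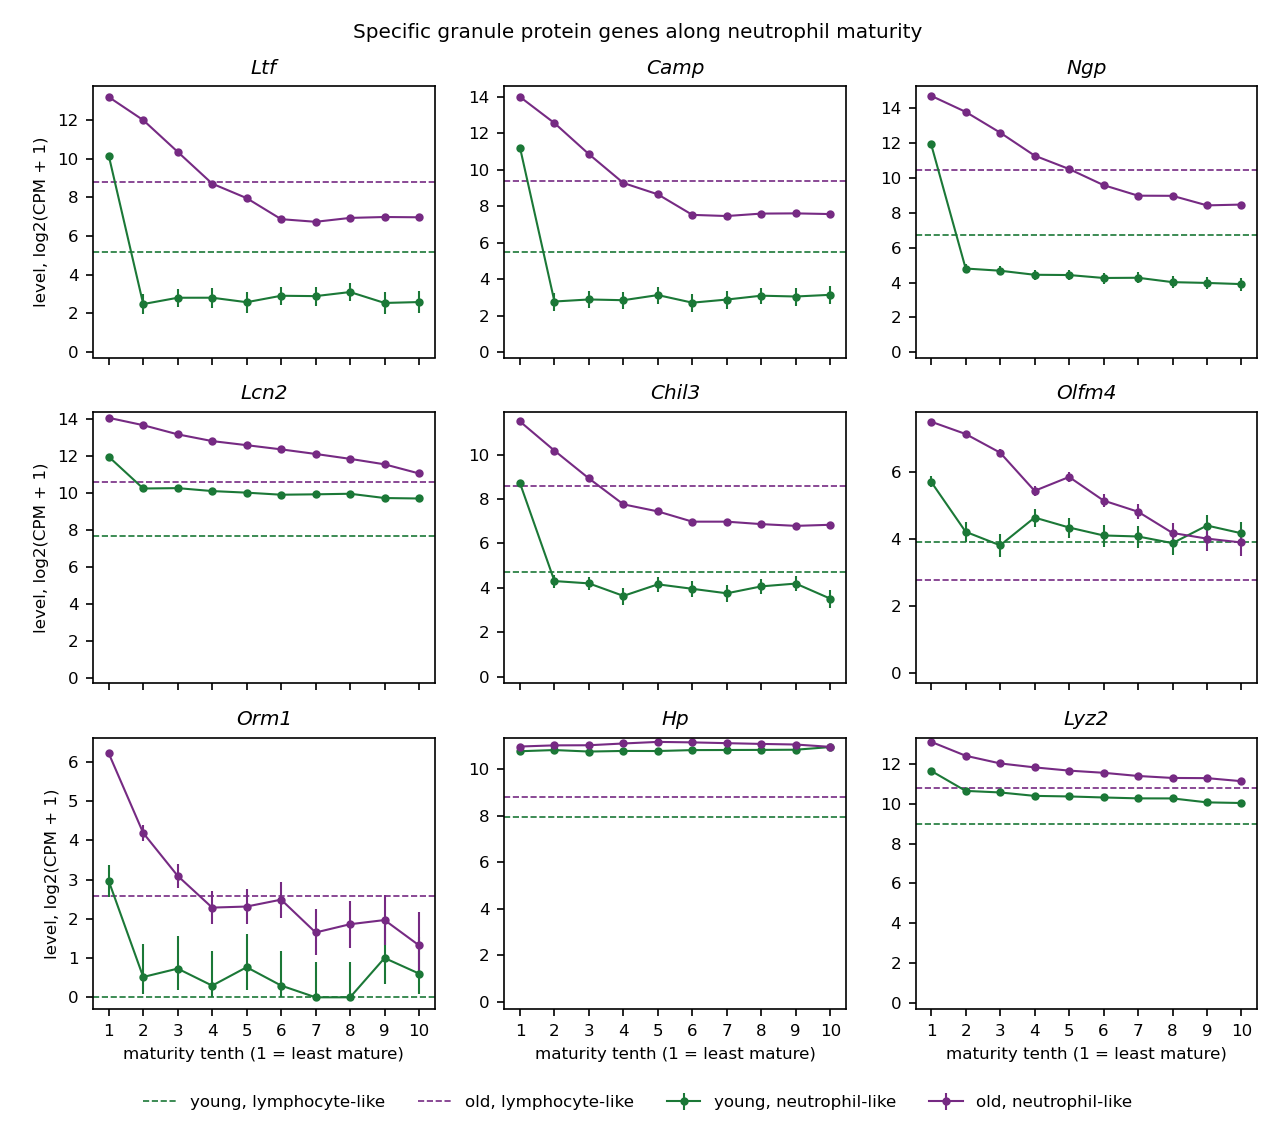
Level of each gene as log2(CPM + 1) in 10 maturity groups of neutrophil-like cells (group 1 least mature), in green for the young and purple for the old library, with exact 95% Poisson intervals, and dashed lines for the lymphocyte-like cells of the same library. Camp, Ltf and Ngp fell to a low plateau within 1 step in the young library, Camp and Ltf did so over about 5 steps in the old while Ngp went on falling, Lcn2 and Lyz2 fell gradually, and Hp stayed level.

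In the old library the decline could be followed step by step. Camp went from 16386 CPM in group 1 to 6045 in group 2, 1853 in group 3, 618 in group 4 and 401 in group 5. From group 6 to group 10 it stayed between 175 and 194 CPM. Ltf went from 9374 CPM through 4091, 1308, 417 and 247 and then stayed between 105 and 125 CPM. Ngp went from 26962 CPM through 14241, 6236, 2496 and 1465 and went on falling to 355 CPM in group 10. Chil3 went from 2886 CPM in group 1 to 173 in group 5 and 114 in group 10. Lcn2 fell from 17160 CPM to 6154 in group 5 and 2129 in group 10, and Lyz2 from 8798 to 3234 and 2239 CPM. Hp stood at 1995 CPM in group 1, 2289 in group 5 and 1974 in group 10.

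The position at which a gene had lost 50% of its highest level, on the scale of the 10 groups, gave the order of loss. In the old library it was Orm1 (1.48), Camp (1.70), Chil3 (1.76), Ltf (1.84), Ngp (2.07), Lyz2 (2.79), Olfm4 (3.06) and Lcn2 (3.29), and Hp did not lose 50% in any group. Camp, Chil3 and Ltf, neighbours in this order, changed places under some other settings and are not ordered among themselves. Among other granule genes Cybb stood at 2.05, Cd177 at 3.64, Mmp8 at 7.16, Retnlg, which was highest in group 4, at 9.37 and Pglyrp1 at 9.54. Mmp9 did not lose 50%.

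In the young library nearly all of the decline fell inside group 1. Camp stood at 2388 CPM in group 1 and between 5.53 and 7.81 CPM in groups 2 to 10, and Ltf at 1142 CPM and then between 4.53 and 7.52 CPM. Group 1 held 98.1% of Camp UMIs. Positions were 1.12 for Camp, 1.13 for Ltf, 1.14 for Ngp, 1.22 for Chil3 and 1.25 for Orm1, too close together to order. Lcn2 (1.58), Olfm4 (1.65) and Lyz2 (2.00) followed. Cd177 stood at 1.40, Mmp8 at 1.74 and Retnlg at 1.98, and Mmp9 and Pglyrp1 did not lose 50%. Hp, at 1734 CPM in group 1 and 1963 CPM in group 10, did not fall. Spearman's rho between the orders of the 9 genes in the 2 libraries was 0.72, given as a description. It includes ranks among the young positions that were too close to order. Hp, without a position, was set last in both libraries. In both libraries Camp, Chil3, Ltf, Ngp and Orm1 came before Lcn2, Lyz2 and Olfm4, and Hp came last. The place of Olfm4 depended on how maturity was scored and grouped.

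Groups of 1% of cells, added after the data were seen, resolved the young decline. With 97 cells in each, Camp stood at 13098 CPM in the first percent of young cells, 576 in the second and 20.3 in the fifth, and Ltf at 6386, 95.5 and 2.03 CPM. Lcn2 stood at 11849, 4559 and 2028 CPM. The first percent of old cells (83 cells) had Camp at 24548 CPM and the tenth still at 10543 CPM. The least mature young cells thus held amounts of these transcripts of the order seen in the old library, but they were few.

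Cutting both libraries at the same scores showed where they differed. Common group 1 held 67 young and 1617 old cells. There Camp stood at 17067 CPM young and 11999 CPM old, Ltf at 8368 and 7144 CPM, Ngp at 25052 and 21619 CPM and Lcn2 at 13393 and 15423 CPM. In that group 0 of 9 genes passed 1.5-fold in either direction, where 7.53% of genes were higher and 30.6% lower. In common group 3 (234 young, 1474 old cells) 7 of 9 were higher in the old library, with Camp at 110.3 and 324 CPM and Ltf at 50.9 and 206 CPM, where 7.56% of genes were higher. In common group 5 (1079 young, 751 old cells) Camp stood at 6.08 and 189.7 CPM, Lcn2 at 1260 and 3749 CPM and Hp at 1791 and 2182 CPM. The mean level over the 10 common groups, with equal weight per group, gave a median log2 ratio of 0.08 with 1 of 9 genes past 1.5-fold. The share of all genes past 1.5-fold in this mean was not computed. Group 1 weighs most in this mean for genes that fall steeply, so it says little of the later groups. In common group 5, 7 genes were higher and 0 lower, against 5.57% and 32.2% of genes. Group 8 had 7 higher and 1 lower (Olfm4), against 5.53% and 22.4%. Group 10 had 6 higher and 0 lower, against 7.47% and 18.9%. The genes higher in groups 5, 8 and 10 include Ltf, Camp, Chil3 and Ngp, whose levels in mature cells are compared with background in what follows. Orm1, also counted as higher in groups 3, 5 and 8, stood under 5 CPM there in both libraries.

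**Figure D3:**
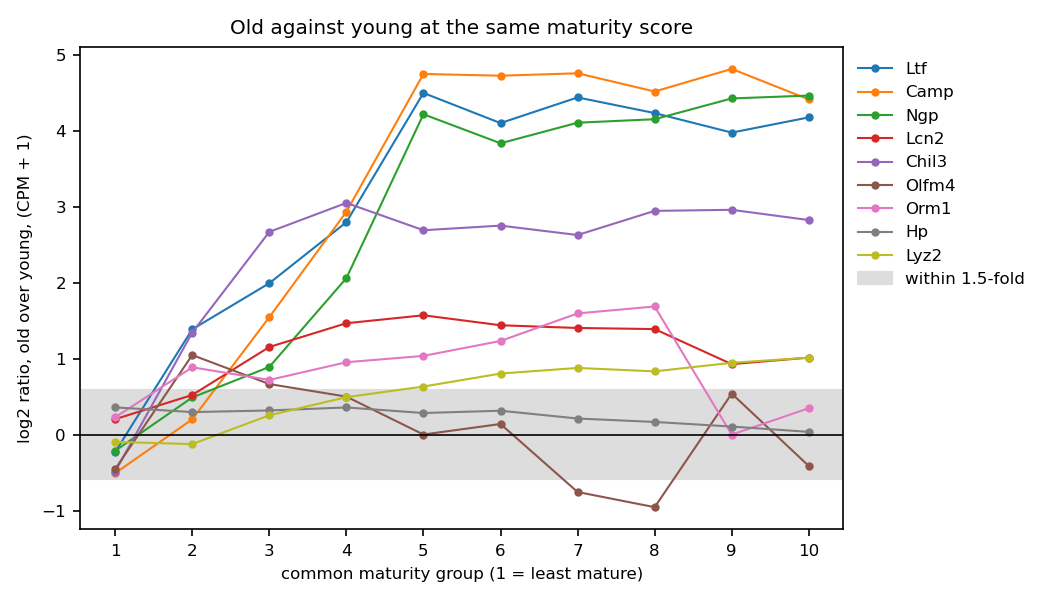
Log2 ratio of old over young level, each as CPM + 1, for the 9 genes in 10 groups cut at the same maturity scores in both libraries (group 1 least mature), with the grey band marking differences within 1.5-fold. All 9 genes lay in the band in group 1, and Camp, Ltf and Ngp rose to between 3.84 and 4.82 from group 5 on while Hp stayed in the band.

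The low plateau of these transcripts in mature cells was at the level found in lymphocytes. After thinning to 1000 UMIs, the more mature 50% of old neutrophil-like cells (4183 cells) held 0.120 Ltf UMIs per cell (0.110 to 0.131). The 338 old lymphocyte-like cells with under 10% of UMIs from S100a8 and S100a9 held 0.127 (0.092 to 0.171). Camp stood at 0.185 (0.172 to 0.198) against 0.160 (0.120 to 0.208), and Chil3 at 0.119 against 0.172. Ngp, at 0.451 (0.431 to 0.472) against 0.340 (0.281 to 0.408), lay slightly above. These intervals overlapped for Ltf and Camp, so the UMIs of Ltf, Camp and Chil3 in mature old cells are read as background, and the ratios of Camp, Ltf and Chil3 in common groups 5 to 10 compare background levels.

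The same held in the young library at lower values. The more mature 4898 cells held 0.00592 Ltf UMIs per cell and 847 such lymphocyte-like cells 0.00708. Camp stood at 0.00653 against 0.0165 and Ngp at 0.0135 against 0.0272. Lcn2, Hp, Olfm4 and Lyz2 lay above the lymphocyte-like level in mature cells of both libraries, Lyz2 by less than 4 times. Lcn2 stood at 0.863 UMIs per cell against 0.146 in the young and 3.35 against 0.429 in the old library. Hp stood at 1.85 against 0.241 and at 2.09 against 0.183, and Lyz2 at 1.10 against 0.392 and at 2.49 against 0.716. Olfm4 stood at 0.0190 (0.0153 to 0.0233) against 0.00354 (0.00073 to 0.0104) and at 0.0230 (0.0186 to 0.0280) against 0 UMIs in 338 cells, with an upper limit of 0.0109. In the more mature cells Lcn2 thus lay above background in both libraries and higher in the old one, while Hp was nearly level between them. These cells were cut within each library, so young and old ones were not matched for maturity. At matched scores, in common group 10, Lcn2 stood at 844 CPM young and 1705 CPM old and Hp at 1897 and 1945 CPM.

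Over all neutrophil-like cells the mean was at least 4 times that of lymphocyte-like cells for 5 of 9 genes in the young library (Camp, Lcn2, Olfm4, Orm1 and Hp) and for 7 of 9 in the old, all but Chil3 and Lyz2. Orm1 is counted in both because no thinned lymphocyte-like cell had a UMI, but its mean was 0.00133 young against an upper limit of 0.00429 in lymphocyte-like cells and 0.00968 against 0.00978 old, so it is not shown to lie above background. Without Orm1 the counts are 4 of 8 and 6 of 8. Without thinning, the young Olfm4 and old Orm1 levels did not reach 4 times. The counts also depended on a few lymphocyte-like cells, 13 young and 39 old, with at least 10% of UMIs from S100a8 and S100a9. Without them, and with Orm1, 7 genes reached 4 times in the young library, with Ltf and Ngp added. In the old library 8 did, with Lyz2 added. The ratio was 5.62 young and 5.60 old for Camp, 2.84 and 5.25 for Ltf, 3.44 and 5.83 for Ngp, 6.81 and 7.54 for Lcn2, and 7.05 in both for Hp. For S100a8 the lymphocyte-like level was 11.4% of the neutrophil-like level young and 11.1% old. In UMIs per cell without thinning it was 24.2% and 16.5% for Camp and 58.0% and 42.3% for Lyz2. A few lymphocyte-like cells held most of these UMIs: 86 of 860 young cells held 67.4% of the UMIs of the 8 genes, and 38 of 377 old cells held 61.2%. No doublet caller was run, and such cells can hold a neutrophil beside a lymphocyte.

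**Figure D4:**
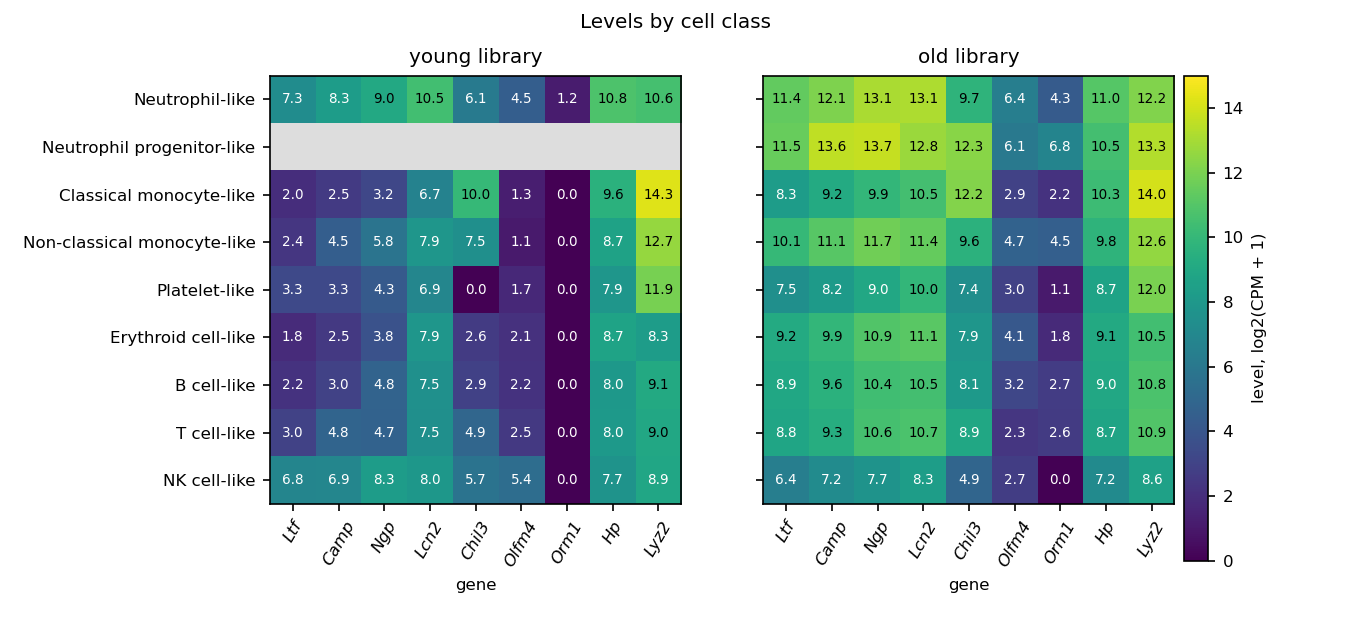
Level of each gene as log2(CPM + 1) in the summed cells of each class and library, with the number printed in each cell of the map and grey where a library held no such class. Camp, Ngp and Ltf were high in neutrophil-like and neutrophil progenitor-like cells, and Lyz2 and Chil3 were high in classical monocyte-like cells.

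Among the other classes, 103 old cells led by Elane and Mki67 were progenitor-like, against 0 of 12921 young cells, which allows a share of up to 0.0232%. These progenitor-like cells held Camp at 12081 CPM, Ngp at 13111 CPM, Ltf at 2941 CPM and Lcn2 at 6918 CPM. Relative to all old neutrophil-like cells Camp was 2.75-fold, Chil3 (5122 CPM) 5.97-fold and Orm1 (109 CPM) 5.74-fold higher there, and Ltf 1.11-fold. Lcn2, Hp and Olfm4 were highest in the neutrophil-like cells. Against old cluster 4, with its levels in brackets, progenitor-like cells were again higher in Chil3 (2087 CPM) and Orm1 (46.1 CPM). They were close to it in Camp (11614 CPM) and lower in Ngp (21311 CPM), Ltf (6969 CPM) and Lcn2 (15240 CPM).

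Lyz2 and Chil3 were not particular to neutrophils. Classical monocyte-like cells held Lyz2 at 19931 CPM in the young (143 cells) and 16705 CPM in the old library (1195 cells). They held Chil3 at 1053 and 4673 CPM. In the young library these cells held Camp at 4.81 CPM and Ltf at 2.89 CPM, from 10 and 6 UMIs. In the old library they held Camp at 581 CPM, Ltf at 317 CPM and Ngp at 984 CPM, each below the level in old lymphocyte-like cells, and 86.1% of them had a Camp UMI without thinning. Markers of classical monocytes in neutrophil-like cells summed to 333 CPM young and 888 CPM old over 8 markers, of which 0 were at 0, and 3 reached 5 CPM young and 6 old. Along old maturity they went from 1152 CPM in group 1 to 589 CPM in group 10. Their part in the Lyz2 and Chil3 values was not tested.

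Across cells, Camp, Ltf and Ngp were the most closely linked. In the old library (8367 cells at 1000 UMIs) Spearman's correlation was 0.62 for Ltf with Camp, 0.60 for Ltf with Ngp and 0.58 for Camp with Ngp and for Ngp with Lcn2. In the young library (9797 cells) the first 3 were 0.46, 0.34 and 0.43, and Ngp with Lcn2 was 0.18. Of 36 pairs, 7 young and 15 old lay above 0.2, with medians of 0.08 and 0.10. Hp and Olfm4 were near 0 with every partner, at most 0.09 and 0.03 in young cells and 0.06 and 0.05 in old ones. Cells of 1 library share their depth, thinning and free RNA, and zeros dominate the counts, so these values are descriptions.

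**Figure D5:**
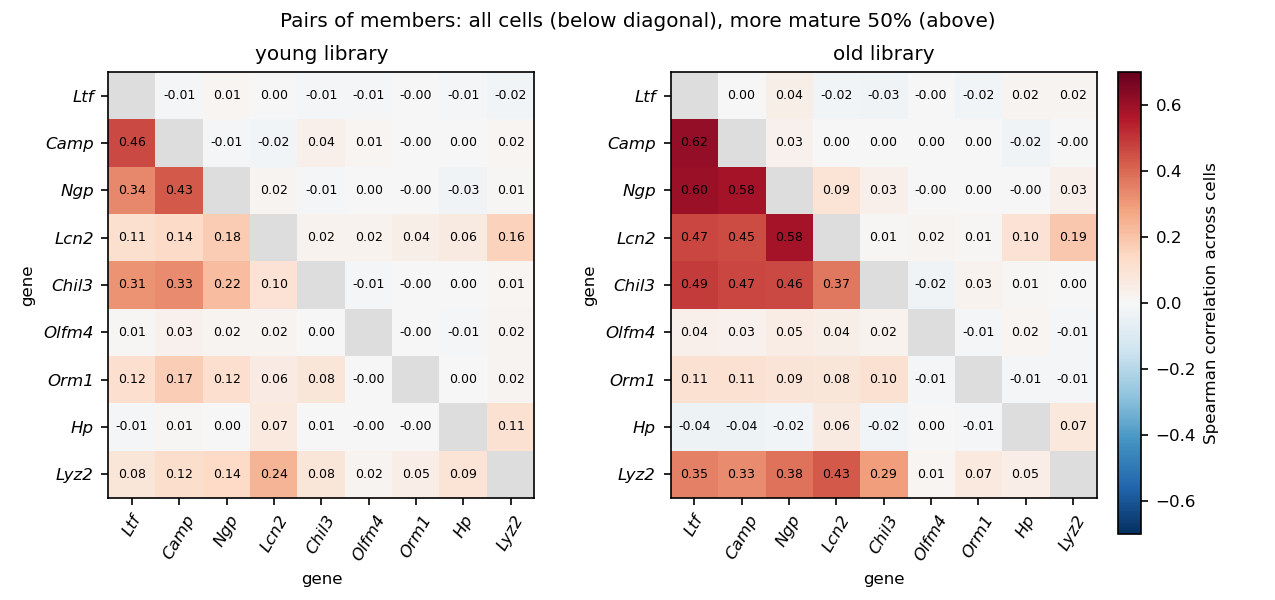
Spearman correlation across neutrophil-like cells thinned to 1000 UMIs for each pair of genes, over all cells below the diagonal and over the more mature 50% of cells above it, in the young (left) and old (right) library. The block of Ltf, Camp, Ngp, Lcn2 and Chil3 seen over all cells of the old library was near 0 in its more mature cells, where Lcn2 with Lyz2 kept 0.19.

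The links among Ltf, Camp and Ngp were closer in the least mature cells than over all cells. In group 1 alone Ltf with Camp reached 0.75 in the young (980 cells) and 0.67 in the old library (837 cells), and Camp with Ngp 0.70 and 0.71. Ngp with Lcn2 was 0.51 in young group 1 and 0.47 in old group 1, against 0.18 and 0.58 over all cells. Lcn2 with Ltf, Camp or Chil3 was likewise closer in young group 1 and weaker in old group 1 than over all cells. In the more mature 50% of cells the median over pairs was 0.00 in both libraries. There Lcn2 with Lyz2 kept 0.16 young and 0.19 old.

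Outside the 9 genes, 3770 genes were detected in at least 2% of thinned cells of each library and ranked by their correlation with the summed 8 genes, as the mean of Pearson's r on log counts in both libraries. The 10 nearest were S100a8 (0.36 young, 0.60 old), S100a9 (0.36, 0.55), Ifitm6 (0.19, 0.63), Cybb (0.20, 0.56), Wfdc21 (0.25, 0.50), Cd177 (0.18, 0.47), Mmp8 (0.26, 0.33), Anxa1 (0.11, 0.47), Ly6c2 (0.15, 0.39) and Arhgdib (0.10, 0.37). The median over all ranked genes was -0.01 young and -0.04 old. Cybb, Cd177 and Mmp8 also stand on the list of other specific granule genes, and Ifitm6 and Anxa1 are early genes of the maturity score.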

How the data were processed

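The deposited tables of the 2 libraries hold raw UMI counts, with genes in rows and cell barcodes in columns. Cell Ranger 7.2.0 is named per the file headers and build mm10 per the submitters' processing notes, while the annotation release and the cell calling are not given in the sources used here. Barcodes had at least 500 UMIs. Totals were 69599479 UMIs over 13599 young barcodes and 128826996 over 14334 old ones.

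Barcodes with fewer than 200 genes or more than 20% mitochondrial UMIs were removed (678 young, 817 old). Both libraries were clustered together in scanpy 1.11.5 (Python 3.11.15, leidenalg 0.10.2, scikit-learn 1.9.0, pandas 2.3.3, scipy 1.17.1, numpy 2.4.6) from 2000 variable genes without the members and their paralogs, with 30 principal components, 15 neighbours and resolution 0.6. Clusters were named from marker lists with at least 3 markers detected, and a cluster was left unnamed where a marker of another type was among its 2 leading genes or fewer than 6 of its 10 leading genes reached 50 CPM. These naming limits were set after the data were seen. Unnamed clusters held 971 young and 1671 old cells.

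UMIs were summed over cells per class and given as CPM, with ratios on the log2(CPM + 1) scale, a floor of 5 CPM in the mean of the libraries and a call at 1.5-fold. CPM is not corrected for transcript length, so levels are not compared between genes. Cells were thinned once, with a fixed seed, to 1000 UMIs for shares, scores and correlations. The ratio step was tested on simulated counts over 7180 genes at the depths of old against young, and 100% of genes changed 2-fold and 100% of genes changed 4-fold were called relative to the median gene. The simulated counts varied by counting error only, without differences in cell makeup or free RNA, and the plain ratio was not tested so. All 9 members were named whatever their values, with up to 4 genes per list by size of ratio at 10 CPM or more, Cebpe, Mmp9, Retnlg, Cd177 and the paralogs, and the 10 nearest genes by correlation. Elane, Mpo, Lrp1, Cd163, Slc22a17, Pglyrp1 and the sex-linked genes were named outside this rule. Members and lists were chosen with earlier results of these data known.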

Additional observations from a re-analysis of the deposited data

How the results depend on the processing

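With 1 library per age, nothing here separates age from library, and the libraries differ in depth, in cell makeup and in free RNA. Depth limits Orm1 and Olfm4 most. No paired analysis was possible because each age has 1 library and the results come from no test.

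The count of 8 genes higher and 0 lower stayed within 7 to 9 and at 0 under the cell filters, resolutions, scalings, pseudocount, floor, free RNA subtraction and removal of cells with markers of other types (199 young, 334 old). It fell to 1 with the mean level over 10 common maturity groups, in which group 1 weighs most for steeply falling genes. It also fell to 1 in cluster 4 alone, an alternative chosen after seeing the data. The share of all genes called was not computed for the mean over common groups, for cluster 4 alone or without cluster 4. The median ratio, 3.16 log2, moved to 2.52 with cells thinned to 1000 UMIs, 2.67 with equal weight per cell, 3.84 centred on the median gene, 3.59 with a total without S100a8, S100a9, mitochondrial and ribosomal protein genes, and 3.66 with a pseudocount of 0.1 CPM. It was 2.82 without cluster 4 (8 genes measured) and 0.22 in cluster 4 alone, both chosen after seeing the data, and 0.081 over the common groups. Over the common groups Camp turned to -0.29 and Olfm4 to -0.030, and in cluster 4 alone Camp to -0.026. Of 143 single-gene ratios under alternatives, 62 stayed within the counting interval, 78 moved beyond it and these 3 reversed. Hp, within 1.5-fold at 0.25, went to -0.40 with UMIs per lymphocyte-like cell subtracted. Counting unnamed clusters that best match neutrophils, also added later, changed no call.

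Spearman's rho between the orders of loss, 0.72, was 0.88 with the early genes alone, 0.55 with the late genes alone, 0.93 with 20 groups, 0.85 with common groups and 0.50 with UMIs per lymphocyte-like cell subtracted. Olfm4 came before Ltf and Ngp in the old library with the late genes alone and in groups of 1% of cells. The members at 4 times the lymphocyte-like level, 5 young and 7 old with Orm1 in both, became 1 (Orm1) and 2 (Olfm4 and Orm1) at 10 times. They were 8 in the young library against B cell-like cells alone. Without lymphocyte-like cells high in S100a8 and S100a9 they were 7 young and 8 old. Among the more mature 50% of cells, against lymphocyte-like cells low in S100a8 and S100a9, a comparison added later, they were 4 in the old library, again with Orm1. The median correlation in the young library was 0.14 as Pearson's r on log counts, and in the more mature 50% of cells it was 0.0024 young and 0.0031 old. The causes of these shifts were not tested.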

Other observations

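Lyz2 UMIs were also abundant in platelet-like cells, at 3844 CPM (3663 to 4032) young (350 cells) and 4013 CPM (3883 to 4147) in the old (606 cells). In the same cells Camp stood at 9.09 and 287 CPM and Hp at 236 and 411 CPM. The lymphocyte-like cells held Lyz2 at 514 and 1791 CPM. At 1000 UMIs, 93.4% of young and 95.1% of old platelet-like cells of that depth had a Lyz2 UMI, against 20.2% and 44.0% of lymphocyte-like cells. Platelet-like cells had a median depth of 830 UMIs young and 854.5 old, so most fell below the thinning depth. Young NK cell-like cells held Olfm4 at 39.97 CPM (31.49 to 50.02), above the 21.7 CPM of young neutrophil-like cells, from 76 UMIs that lay in 2 of 215 cells (0.930%). After thinning, 0.467% of these cells had an Olfm4 UMI, against 1.53% of young neutrophil-like cells, and the 2 measures order the classes differently.

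Clusters left unnamed also held the genes. In cluster 12, with 285 old cells and 1 young cell, the 8 genes other than Lyz2 took 2.63% of UMIs (2.60 to 2.65), against 2.77% in old neutrophil-like cells, with Camp at 5129 CPM. In cluster 2, led by the platelet genes Nrgn and Itga2b among others, with 933 young and 1132 old cells, they took 0.306% and 0.929% of UMIs, with Lcn2 at 1182 and 4723 CPM.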
